A study of Mus musculus with 6 samples.

Results

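The proteasome is the protein complex that degrades ubiquitin-tagged proteins, and its genes are described here in CD8 T cells sorted by the receptor NKG2D. The genes were chosen by name alone. All genes whose symbol begins with Psma, Psmb, Psmc or Psmd and a number, and Psme1 to Psme4, were taken, except the immunoproteasome genes Psmb8, Psmb9 and Psmb10. This gave 41 of the 23284 genes in the files. One of them, Psmc3ip, matches by name but encodes a meiotic recombination factor that binds the ATPase Psmc3. Its levels are given apart, but it stays in the counts and sums over all members. The RNA came from lymph nodes of C3H/HeJ, an inbred mouse strain in which alopecia areata, an autoimmune hair loss, can arise or be induced. Both populations were CD3+CD8+CD44+CXCR3+, and 3 libraries were of NKG2D+ and 3 of NKG2D- cells, from 3 mice. The sources used here give no age, treatment or disease state of the mice. No genotype or agent separates the groups, which differ in the sort gate only.

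The core particle of the proteasome is a barrel of stacked rings, with alpha subunits at both ends and beta subunits between them. Some of the constitutive beta subunits cut peptide bonds, and cells exposed to interferon-gamma, as well as resting lymphocytes, replace them with the immunoproteasome subunits encoded by Psmb8, Psmb9 and Psmb10. The regulatory particle binds ubiquitin chains and unfolds substrates with a ring of ATPases, while other caps, encoded by Psme1 to Psme4, open the barrel without ubiquitin. In T cells this machinery clears cell-cycle regulators and signalling inhibitors, and it makes the peptides shown on MHC class I.

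The libraries held 41168816 to 89184611 gene counts. Klrk1, which encodes NKG2D, stood at 409, 312 and 342 CPM (counts in each 1000000 gene counts, scaled by the TMM method) in NKG2D+ libraries 1, 2 and 3 and at 34.5, 37.1 and 36.1 CPM in the NKG2D- libraries. Cd3e and Cd8a were present in all 6 libraries, at 403 to 502 and 1135 to 1934 CPM. Cd44, whose protein was part of the gate of both populations, stood at 430, 177 and 224 CPM against 137, 136 and 133 CPM, 2.05-fold higher without overlap (edgeR unadjusted p = 0.013, adjusted p = 0.130). Cxcr3 stood at 252 to 353 CPM against 238 to 274 CPM. Several genes listed as markers of other cells differed between the groups. Of 10 B-cell markers 0 passed the test by edgeR's quasi-likelihood test with Benjamini-Hochberg adjustment, 9 were higher at an unadjusted p under 0.05, and none was at 0. Their summed level ran from 372 to 569 CPM in the NKG2D+ group and from 107 to 265 CPM in the other. For myeloid markers the sums were 265 to 516 CPM against 388 to 424 CPM, of which Ly6c2 made 229 to 497 CPM. At lower levels Lyz2, Csf1r, Itgax, Xcr1 and Fcer1g stood 2.18 to 4.13 times as high in NKG2D+ libraries, without overlap, and Clec9a and Siglech stood at 0.342 and 0.432 times the NKG2D- level. Cd14 and Emr1 were at 0 in 1 library. By the same edgeR test 0 of 10 myeloid, 0 of 3 gamma-delta and NKT and 0 of 6 CD4 and regulatory T-cell markers passed. At an unadjusted p under 0.05, 5 myeloid markers were higher and 2 lower, 2 and 0 of the gamma-delta and NKT markers, and 3 and 1 of the CD4 and regulatory T-cell markers. At an adjusted p under 0.05 by edgeR, Prdm1 was called higher among 5 plasma-cell markers. Among 3 stromal and endothelial markers Col1a1 was called higher and Pecam1 lower. Of 12 proliferation genes edgeR called 4 higher (Mki67, Top2a, Cdk1 and Aurkb), against 1.65% of all genes tested. At an unadjusted p under 0.05 by edgeR, 8 of the 12 were higher (12.5% of all genes), and 11 log2 fold changes were positive. Whether other cells or the sorted CD8 cells expressed these genes was not tested. B-cell, myeloid and other cells carry proteasomes too, and the part of any such cells in the values below was not tested.

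No proteasome gene passed the test between the populations. Of the 40 genes with enough counts to test, edgeR called 0 higher and 0 lower with NKG2D (adjusted p under 0.05), where 2.02% of all 12951 genes tested were called (1.65% higher and 0.363% lower). At an unadjusted p under 0.05, 0 stood above and 2 below, Psme1 and Psmc5, against 12.5% and 8.62% of all genes. DESeq2 also called 0 of the 40 in either direction (7.73% of all genes higher and 3.41% lower), and so did limma-voom (0.463% and 0.178%), edgeR with the replicate number as a block (0.44% and 0.0849%), on library totals (2.18% and 0.301%) and with upper-quartile scaling (1.74% and 0.347%). In bulk RNA, fewer cells that express a gene and less RNA per cell cannot be told apart, which holds for every level given here. Log2 fold changes (NKG2D+ over NKG2D-) ran from -0.19 for Psmc5 to 0.042 for Psmc3, with a median size of 0.066 regardless of sign, against 0.16 over all genes tested.

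The counts were deep enough to bound these differences. A 95% interval was formed for each log2 fold change from edgeR's standard error and degrees of freedom. For 39 of the 40 genes it lay within a 1.5-fold change either way, a bound chosen after the values were seen, as it did for 56.9% of all genes tested. Psmb11, the least abundant of the 40, was the exception. Apart from Psmb11 and Psmc3ip, the tested genes had 901 to 24942 counts in a library, with a median of 4880, for which counting alone gives an error of 1.43%.

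**Figure D1:**
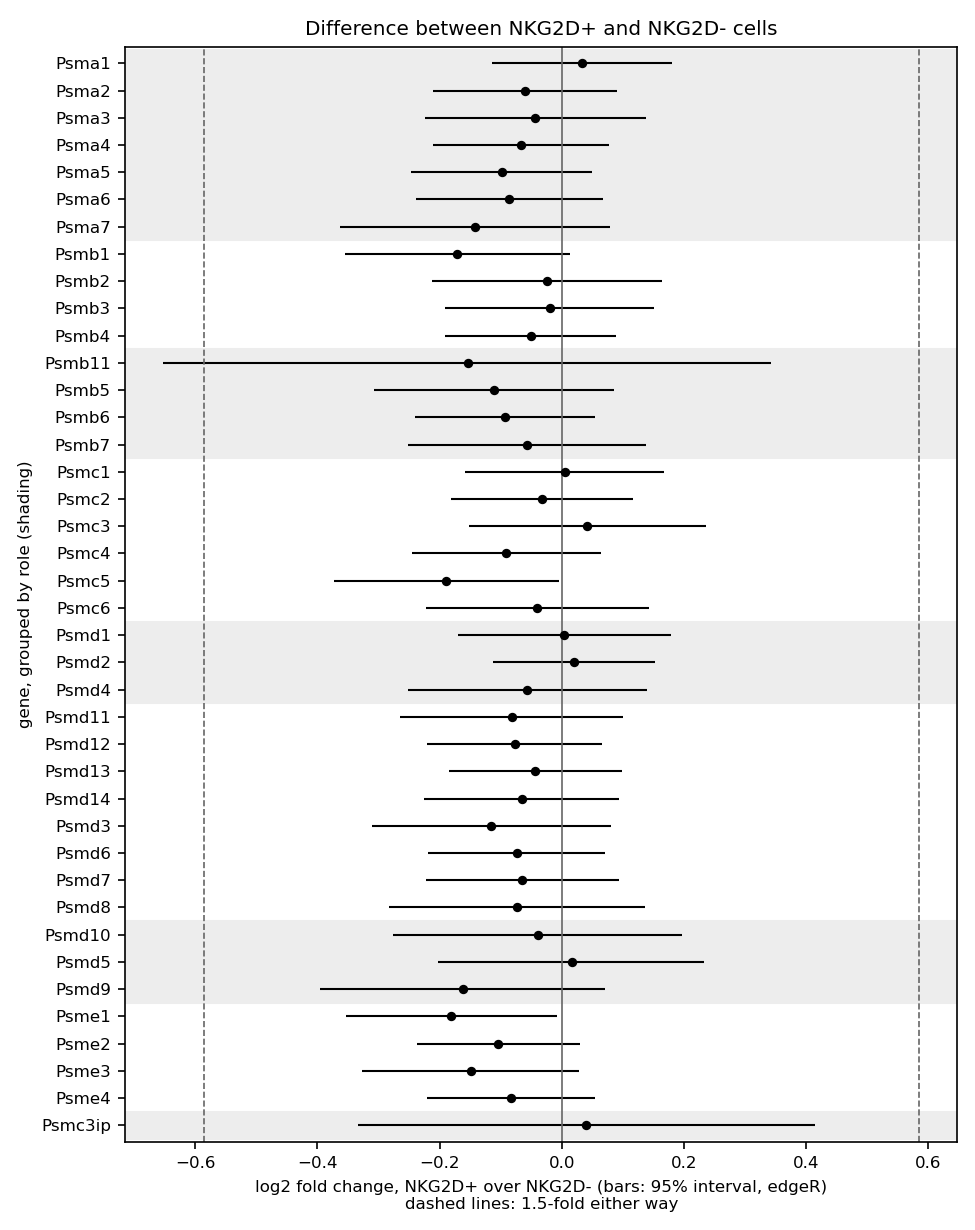
Log2 fold change of each proteasome gene between NKG2D+ and NKG2D- cells (horizontal axis), with points for the estimate and bars for the 95% interval from edgeR, genes in rows shaded by role and dashed lines at a 1.5-fold change either way. The points lie between -0.19 and 0.042, and only the bar of Psmb11 crosses a dashed line.

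Most of the 40 genes stood slightly lower in NKG2D+ cells. The log2 fold change was negative for 33 of 40 (52.8% of all genes tested), with a median of -0.066 against -0.014 over all genes. In 12 of 40 genes all NKG2D+ libraries were below all NKG2D- libraries (14.1% of all genes), and in 0 of 40 they were above (15.1%). In 22 of 40 the NKG2D+ library was the lower in all 3 same-numbered pairs (29.1% of all genes). This direction depends on scaling, and the signs given for single genes are those with TMM. With CPM taken on library totals without TMM factors, 15 of 40 log2 fold changes were negative (36.1% of all genes), the median was 0.018 against 0.068 over all genes, and 0 of 40 genes lay below without overlap (7.57%) and 2 above (20.5%). The distance of the members' median from the median of all genes was -0.052 with TMM and -0.050 on library totals.

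**Figure D2:**
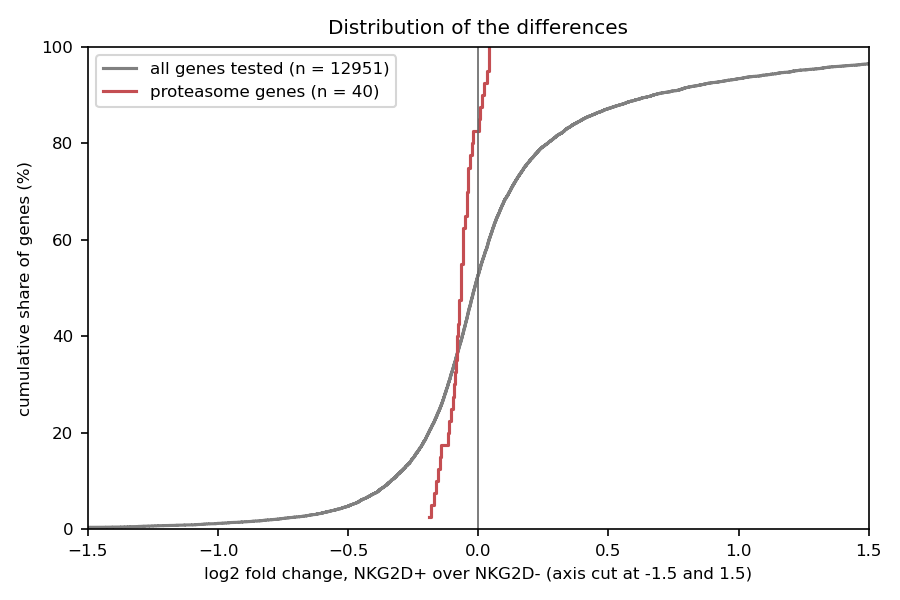
Cumulative share of genes (vertical axis, percent) against log2 fold change between NKG2D+ and NKG2D- cells (horizontal axis, cut at -1.5 and 1.5) for all 12951 genes tested (grey) and the 40 proteasome genes (red). The red curve climbs from -0.19 to 0.042, and the grey curve spans a wider range. On library totals the median of the proteasome genes is 0.018 instead of -0.066.

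Summed over the 41 genes, the level was 3335, 3297 and 3158 CPM in NKG2D+ libraries 1, 2 and 3 and 3532, 3387 and 3411 CPM in the NKG2D- libraries. The groups did not overlap on this scale. As a share of all gene counts, without TMM factors, the 41 genes took 0.3467%, 0.3310% and 0.3295% in NKG2D+ against 0.3406%, 0.3382% and 0.3249% in NKG2D- libraries, and there the groups overlapped. By mouse, the median log2 ratio over the 40 genes was -0.056, -0.046 and -0.104 in mice 1, 2 and 3, against -0.026, -0.001 and -0.017 over all genes. NKG2D- library 1 had the highest level for 23 of the 40 genes (21.1% of all genes), and NKG2D+ library 3 the lowest for 21 (11.1% of all genes). Without NKG2D- library 1 the log2 fold change was negative for 32 of 40 genes, with a median of -0.051, and without NKG2D+ library 3 for 33 of 40, with a median of -0.045.

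Replicates of these genes lay close together. The median coefficient of variation was 5.34% among NKG2D+ and 3.27% among NKG2D- libraries. For the 32 of them with a mean level of 43.6 to 159 CPM it was 5.08% and 3.10%, and for the 3381 other genes in that range 8.25% and 5.41%. Of those 3381 genes 1.54% were called by edgeR and 84.5% had an interval within a 1.5-fold change, against 0 and 32 of the 32 proteasome genes.

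**Figure D3:**
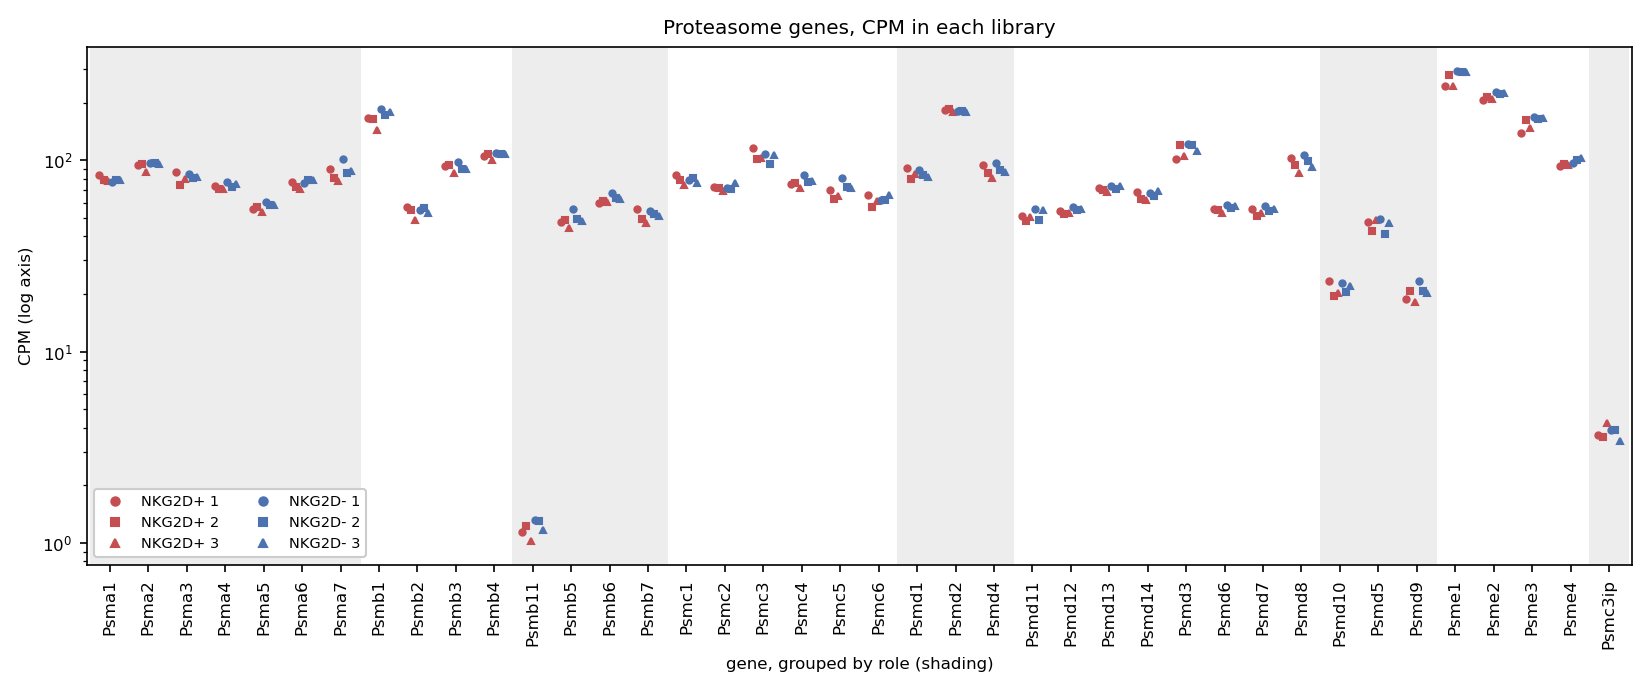
CPM (vertical axis, log scale) of each tested proteasome gene in the 3 NKG2D+ (red) and 3 NKG2D- (blue) libraries, with circles, squares and triangles for replicates 1, 2 and 3 and shading by role. Within a gene the 6 points lie close together, while genes differ from 1.02 CPM in the lowest library of Psmb11 to 294 CPM in the highest library of Psme1.

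The alpha ring guards the entrance of the barrel. Of its 7 tested genes 0 were called, and log2 fold changes ran from -0.14 to 0.033, 6 of them negative. Psma7 stood at 89.98, 80.6 and 78.0 CPM in NKG2D+ and 101, 85.4 and 87.6 CPM in NKG2D- libraries, a log2 fold change of -0.14 (SE 0.093, 95% interval -0.36 to 0.079, edgeR adjusted p = 0.442). NKG2D- library 1 was its highest, and the groups overlapped. Psma5 stood at 55.4, 57.1 and 53.4 CPM against 60.3, 58.7 and 58.6 CPM (log2 fold change -0.098, SE 0.063, edgeR adjusted p = 0.427), without overlap on this scale. Psma1 had the highest log2 fold change of the ring, with levels of 83.5, 78.5 and 77.5 CPM against 76.6, 78.8 and 78.7 CPM (0.033, edgeR adjusted p = 0.814). Psma8, an alpha subunit of male germ cells, had 2 counts in NKG2D- library 1 and 0 in the other 5 libraries. A count of 0 allows up to 3 counts, or 0.0335 to 0.0507 CPM in those 5 libraries, for counting error only.

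Beta subunits without a catalytic site complete the inner rings. Of 4 such genes 0 were called and all 4 log2 fold changes were negative. Psmb1 stood at 167, 164 and 144 CPM in NKG2D+ and 186, 171 and 178 CPM in NKG2D- libraries (log2 fold change -0.17, SE 0.078, 95% interval -0.36 to 0.013, edgeR adjusted p = 0.268). All NKG2D+ values were lower, with NKG2D+ library 3 the lowest. Psmb3 stood at 93.3, 94.5 and 85.9 CPM against 98.4, 89.5 and 89.8 CPM (log2 fold change -0.020, edgeR adjusted p = 0.905), with overlapping groups.

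The constitutive catalytic subunits are those that the immunoproteasome subunits replace. Psmb5, which cuts after hydrophobic residues, stood at 47.7, 49.0 and 44.4 CPM in NKG2D+ and 55.4, 49.1 and 47.9 CPM in NKG2D- libraries. Its log2 fold change was -0.11 (SE 0.083, 95% interval -0.31 to 0.085, edgeR adjusted p = 0.501), and the groups overlapped. Psmb6, which cuts after acidic residues, stood at 59.4, 61.5 and 60.7 CPM against 67.1, 63.7 and 63.0 CPM (log2 fold change -0.093, SE 0.062, edgeR adjusted p = 0.451). Its groups did not overlap on the TMM scale. Psmb7, which cuts after basic residues, stood at 55.5, 49.3 and 46.9 CPM against 54.3, 52.4 and 51.1 CPM (log2 fold change -0.057, SE 0.082, edgeR adjusted p = 0.745), and NKG2D+ library 1 was its highest. Psmb11, the catalytic subunit of the thymoproteasome in cortical thymic epithelium, was low, at 1.02 to 1.23 CPM in NKG2D+ and 1.17 to 1.31 CPM in NKG2D- libraries. Its 52 to 110 counts a library left a 95% interval of -0.65 to 0.34 for the log2 fold change.

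The genes of their immunoproteasome counterparts were measured beside them, and 0 of 3 were called by edgeR. Psmb8 stood at 359, 344 and 350 CPM in NKG2D+ and 320, 341 and 345 CPM in NKG2D- libraries (log2 fold change 0.066, edgeR adjusted p = 0.612). Psmb9 stood at 154, 114 and 129 CPM against 114, 113 and 109 CPM (log2 fold change 0.24, SE 0.11, edgeR adjusted p = 0.283), with the highest value in NKG2D+ library 1. Psmb10 stood at 124, 138 and 127 CPM against 148, 132 and 133 CPM (log2 fold change -0.087, edgeR adjusted p = 0.576).

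Ratios of read counts within a library do not depend on library scaling, and 4 were computed. In each library Psmb8 had more counts than Psmb5, by 7.52, 7.02 and 7.89 times in NKG2D+ against 5.77, 6.94 and 7.21 times in NKG2D- libraries. The counts are not corrected for gene length here. The mean ratio was 7.48 ± 0.435 against 6.64 ± 0.766 (SD, n = 3), higher in NKG2D+ in 3 of 3 pairs, with a two-sided exact permutation p of 0.2 (adjusted over the 4 ratios 0.4). The log2 ratio of Psmb8:Psmb5, NKG2D+ minus NKG2D-, was 0.176, and 0.078 without NKG2D- library 1. Psmb9 to Psmb6 gave 2.59, 1.85 and 2.12 in NKG2D+ against 1.70, 1.78 and 1.74 in NKG2D- libraries. These groups did not overlap, the ratio of group means on the log scale was 1.25, and the exact permutation p was 0.1, the lowest this test allows for 3 against 3 (adjusted 0.4). The log2 ratio of Psmb9:Psmb6, NKG2D+ minus NKG2D-, was 0.317, and 0.188 without NKG2D+ library 1. For Psmb10 to Psmb7 the means were 2.58 ± 0.308 and 2.62 ± 0.108 (SD, n = 3, exact permutation p = 0.9, adjusted 0.9). With this exact test on 3 against 3 libraries no ratio could have passed a threshold of 0.05.

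**Figure D4:**
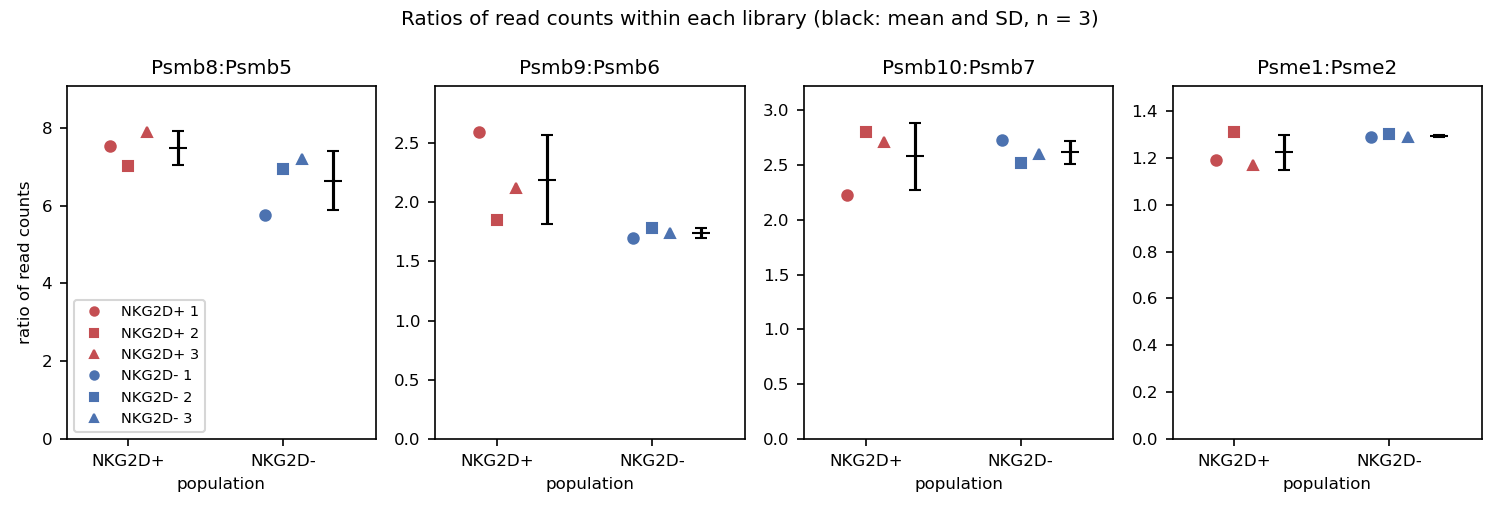
Ratio of read counts within each library (vertical axis, from 0) for 3 pairs of immunoproteasome and constitutive catalytic subunits and for Psme1 to Psme2, with coloured points for the libraries and black marks for the mean and SD (n = 3). Psmb9:Psmb6 lies at 1.85 to 2.59 in NKG2D+ and 1.70 to 1.78 in NKG2D- libraries, while the groups overlap for the other 3 ratios.

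The base of the regulatory particle holds 6 ATPases and the scaffold and ubiquitin-receptor subunits. Of the 6 ATPase genes 0 were called, with 4 negative and 2 positive log2 fold changes. Psmc5 stood at 69.6, 62.5 and 64.7 CPM in NKG2D+ and 80.3, 72.7 and 71.3 CPM in NKG2D- libraries. All NKG2D+ values were below all NKG2D- values on the TMM scale, and the log2 fold change was -0.19 (SE 0.078, 95% interval -0.37 to -0.005), with an unadjusted p of 0.0452 and an adjusted p of 0.227 by edgeR. Psmc3 stood at 116, 102 and 102 CPM against 108, 95.9 and 106 CPM (log2 fold change 0.042, edgeR adjusted p = 0.818). The ATPases are subunits of 1 ring in equal number, and their log2 fold changes spanned 0.042 to -0.19.

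The 3 non-ATPase subunits of the base had log2 fold changes of -0.057 to 0.020, and 0 were called. Psmd2, a scaffold that docks ubiquitin shuttles, stood at 183, 185 and 180 CPM in NKG2D+ and 181, 182 and 178 CPM in NKG2D- libraries, with a log2 fold change of 0.020 (SE 0.056, 95% interval -0.11 to 0.15, edgeR adjusted p = 0.877). Psmd4, a receptor for ubiquitin chains, stood at 94.95, 85.3 and 81.1 CPM against 96.2, 89.1 and 86.5 CPM (log2 fold change -0.057, edgeR adjusted p = 0.748). Both sets of 3 overlapped.

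The lid removes ubiquitin from substrates. All 8 of its genes had negative log2 fold changes, from -0.12 to -0.043, and 0 were called. Psmd3 stood at 101, 120 and 105 CPM in NKG2D+ and 121, 120 and 112 CPM in NKG2D- libraries (log2 fold change -0.12, SE 0.083, edgeR adjusted p = 0.482), with NKG2D+ library 2 within the NKG2D- range. Psmd13 stood at 71.6, 69.7 and 68.6 CPM against 72.9, 70.4 and 73.0 CPM (log2 fold change -0.043, edgeR adjusted p = 0.729). Among the 3 chaperones that assemble the base, Psmd9 stood at 18.7, 20.7 and 18.1 CPM against 23.4, 20.8 and 20.2 CPM (log2 fold change -0.16, SE 0.099, edgeR adjusted p = 0.404). Psmd5 stood at 47.6, 42.8 and 48.6 CPM against 49.3, 41.4 and 46.9 CPM (log2 fold change 0.016, edgeR adjusted p = 0.945). Psmc3ip, which is no subunit, had 3.59 to 4.21 CPM in NKG2D+ and 3.4 to 3.89 CPM in NKG2D- libraries.

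The caps that open the barrel without ubiquitin gave the lowest median of all roles, a log2 fold change of -0.13 over 4 genes. For each of the 4 all NKG2D+ libraries were below all NKG2D- libraries with TMM scaling (14.1% of all genes tested). On library totals this held for none of them (7.57% of all genes tested). Psme1, a chain of the interferon-induced cap, stood at 245, 279 and 245 CPM in NKG2D+ and 294, 290 and 288 CPM in NKG2D- libraries. Its log2 fold change was -0.18 (SE 0.073, 95% interval -0.35 to -0.008), with an unadjusted p of 0.0423 and an adjusted p of 0.221 by edgeR. Psme2, its partner chain, stood at 206, 213 and 210 CPM against 228, 223 and 224 CPM (log2 fold change -0.10, SE 0.057, edgeR adjusted p = 0.353). Among the NKG2D+ libraries, library 2 was the highest for both chains.

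Psme3, which encodes a nuclear cap, stood at 139, 163 and 148 CPM in NKG2D+ and 169, 164 and 167 CPM in NKG2D- libraries (log2 fold change -0.15, SE 0.075, 95% interval -0.33 to 0.028, edgeR adjusted p = 0.314). Psme4, which encodes a single-chain cap active on acetylated histones, stood at 93.7, 95.6 and 94.7 CPM against 97.2, 100.4 and 103 CPM (log2 fold change -0.083, SE 0.059, edgeR adjusted p = 0.472). The ratio of Psme1 to Psme2 counts was 1.19, 1.31 and 1.17 in NKG2D+ against 1.29, 1.30 and 1.29 in NKG2D- libraries (exact permutation p = 0.4, adjusted 0.533). The log2 ratio of Psme1:Psme2, NKG2D+ minus NKG2D-, was -0.080, but -0.129 without NKG2D+ library 2 and -0.048 without NKG2D+ library 3. A gene named Psme2b in the reference annotation may take or share reads of Psme2, so the level of Psme2 is uncertain.

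Genes that work with the proteasome were read from lists made by function. Of 6 chaperones and inhibitors of the core particle 0 were called, and Psmg1, an assembly chaperone, stood at 10.5, 16.8 and 14.5 CPM in NKG2D+ and 18.2, 18.7 and 17.8 CPM in NKG2D- libraries (log2 fold change -0.38, edgeR adjusted p = 0.255). Of 8 tested further components and regulators of the regulatory particle 0 were called. Ubr4, a ubiquitin ligase found with proteasomes, had the smallest p (log2 fold change -0.19, edgeR adjusted p = 0.269). Of 12 genes of ubiquitin shuttles and the Vcp unfoldase 0 were called by edgeR.

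Ubiquitin is made from fusion genes and polyubiquitin genes. Of 6 ubiquitin and E1 enzyme genes 0 were called by edgeR on all libraries. Rps27a, which encodes ubiquitin fused to a ribosomal protein, stood at 844, 1146 and 910 CPM in NKG2D+ and 1342, 1317 and 1243 CPM in NKG2D- libraries (edgeR adjusted p = 0.122, SE 0.12). The log2 fold change of Rps27a was -0.43, and DESeq2 called it lower (adjusted p = 0.0157), as did edgeR without NKG2D+ library 2 (-0.57, adjusted p = 0.0102).

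Nfe2l1 encodes the transcription factor that raises proteasome genes when proteasome activity falls short. It stood at 151, 133 and 139 CPM in NKG2D+ and 120, 123 and 128 CPM in NKG2D- libraries, without overlap (log2 fold change 0.19, SE 0.071, 95% interval 0.024 to 0.36, edgeR adjusted p = 0.190). Of the 8 genes of its pathway 0 were called.

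Levels of different genes were compared per kilobase, with the CPM divided by the length of 1 reference transcript a gene. Among the rings and lid the medians by role were 62.9 for the 7 alpha genes, 92.9 for the 4 structural beta genes, 54.4 for Psmb5, Psmb6 and Psmb7, 51.3 for the ATPases and 38.0 CPM per kb for the lid. On this scale, genes of subunits built into 1 particle in equal number differed. Psma3 and Psma7 of the alpha ring stood at 28.6 and 95.3 CPM per kb, 3.34-fold apart. Psmd11 and Psmd8 of the lid were 3.48-fold apart. These folds depend on the transcript chosen, with 2846 bases for Psma3 and 914 for Psma7. With all annotated exons joined, Psma3 and Psma7 stood at 28.6 and 73.8, and Psmd11 and Psmd8 at 17.3 and 43.8 CPM per kb. Joining can only lengthen a gene and left Psma3 at 2846 bases, so it cannot show whether that length makes the gap. Before division by length, Psma3 and Psma7 had means of 80.05 and 82.84 CPM in NKG2D+ and 82.48 and 91.41 CPM in NKG2D- libraries. Their coding lengths are 765 and 744 bases. Psme1 and Psme2 led, at 246 and 226 CPM per kb, then Psmb8 at 211. Within each group Psme1 was the higher of the pair, at 231 ± 17.4 against 218 ± 3.91 in NKG2D+ and 261 ± 2.98 against 234 ± 2.77 CPM per kb in NKG2D- cells (SD, n = 3). The cap gene Psme4 was at 15.01 CPM per kb, and the assembly chaperones were at 7.82 to 14.96.

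Ranked by CPM per kb from high to low, the alpha genes were Psma7, Psma6, Psma1, Psma4, Psma5, Psma2 and Psma3. This rank is not their position in the ring. Some genes next to each other in rank, such as Psma1 and Psma4 (65.7 and 62.9), lay near their spread over libraries. Others lay further apart, such as Psma7 and Psma6 (95.3 and 72.6) or Psma5 and Psma2 (46.2 and 32.4). Psma2 stood above Psma3 (32.4 and 28.6) in each library. These last genes have the longest transcripts of the ring, 2911 and 2846 bases. Before division by length Psma2 had the highest mean level of the ring, 92.4 CPM in NKG2D+ and 96.3 CPM in NKG2D- libraries. Of the catalytic genes, Psmb8 stood at 211 beside Psmb5 at 54.4, Psmb10 stood at 102 beside Psmb7 at 44.5, and Psmb9 at 90.4 beside Psmb6 at 78.4 CPM per kb. These levels depend on the transcript chosen: with all annotated exons of a gene joined, Psmb1 moved from 95.7 to 49.1 CPM per kb. Reads that align to several places were not counted, and the reference lists pseudogenes Psmb5-ps, Psmb6-ps, Psmb6-ps2 and Psmb7-ps2, so levels of their parents may be low. Such reads took a larger share in NKG2D- than in NKG2D+ libraries, and their part in differences between the groups was not tested. Psmd9, Psmb7, Psmd13, Psmd1, Psmc3 and Psma4 share 1849, 405, 342, 252, 215 and 114 exon bases with a gene on the other strand, and Psma5, Psmd3 and Psme1 share 14 to 60. Psmc3ip shares 385 with Mlx on the other strand. Of the immunoproteasome genes in the ratios above, Psmb8 shares 498 exon bases with Gm20496 and Psmb9 212 with Tap1, also on the other strand. Psmd1 also shares 301 bases with Gm21972 and Psmb5 109 with Mir686, both on the same strand. Reads there may be lost or split, and whether the counting used strand is not known here.

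**Figure D5:**
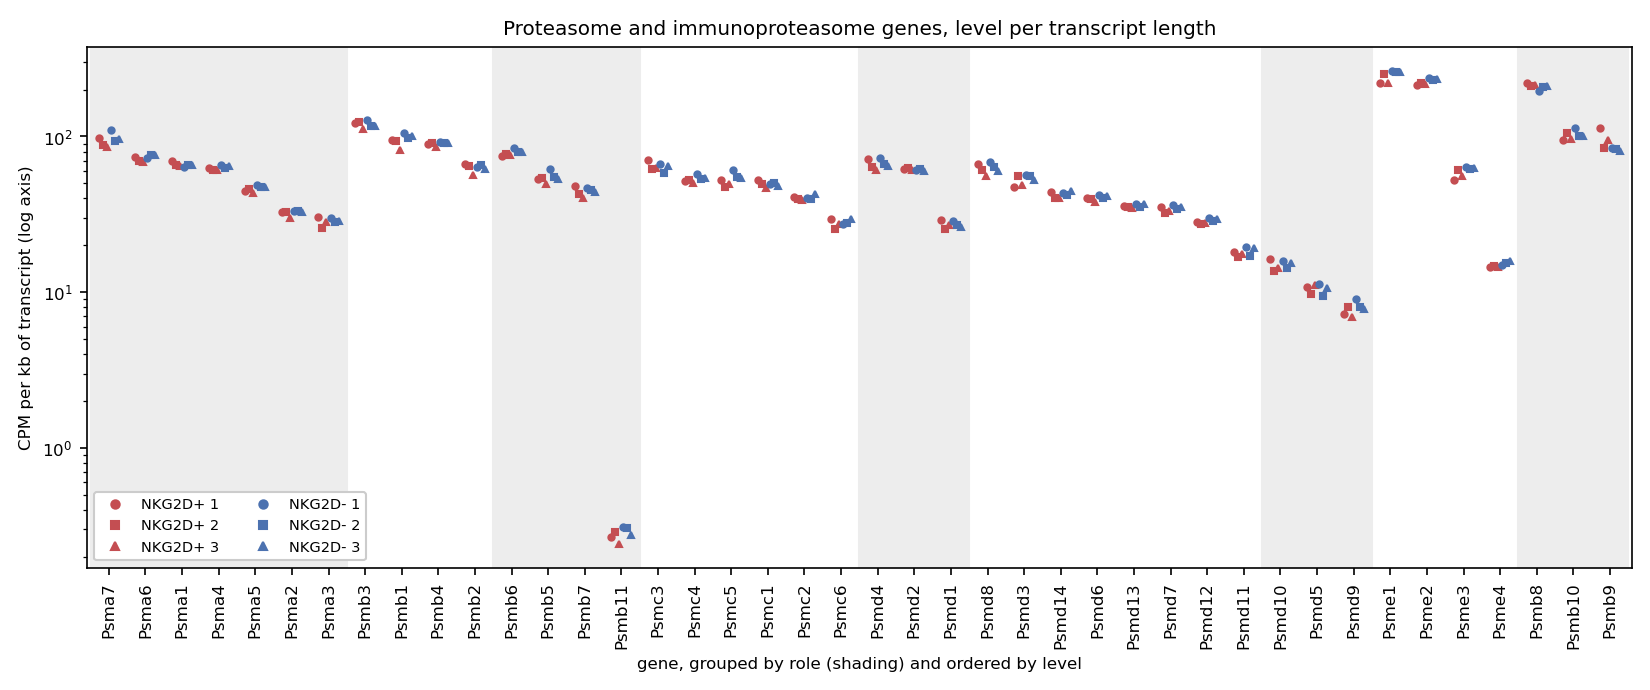
CPM per kilobase of transcript (vertical axis, log scale) of proteasome and immunoproteasome genes in the 3 NKG2D+ (red) and 3 NKG2D- (blue) libraries, shaded by role and ordered by level within it. Psme1, Psme2 and Psmb8 stand at 211 to 246 on average, and Psmb11 at 0.282.

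Promoters of the members were read for shared motifs. Those of 34 of the 41 genes were found in the RefSeq table for GRCm38.p6, with 37 start sites, and no entry was found for Psma8, Psmb1, Psmb2, Psmb7, Psmc3, Psmd3 and Psmd7. The 250 bases before each start were searched on both strands for 4 motifs that did not overlap each other in these promoters. The ETS core CCGGAAG was in 13 of 37 promoters (35.1%, against 6.91% of all 32851 promoters), and the CCAAT box CCAAT in 14 (37.8%, against 33.8%). Both counts include Psmc3ip, which is no subunit. The antioxidant response element TGACNNNGC, of the kind bound by the Nfe2l1 product, was in 5 (13.5%, against 10.2%), those of Psmb5, Psmb6, Psmc6, Psmd9 and Psmd12. An interferon response element, GAAA, any 2 bases and GAAA, was in 3 (8.11%, against 2.98%), those of Psmb3, Psmd4 and Psmd9. It was absent from this window of Psme1 and Psme2, and of the immunoproteasome genes Psmb8, Psmb9 and Psmb10. A match describes letters only, and binding was not measured.

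The promoters of 5 genes are printed as examples, 5′ to 3′ on the gene's strand, with every match to the 4 motifs in capitals. Psmb5 and Psmb6 are the catalytic pair with an antioxidant response element, starting 47 and 9 bases before the start of transcription. Psmd2 had the highest log2 fold change of the base scaffold and has an ETS core 26 bases before its start. Psmd4 has an ETS core, a CCAAT box and an interferon response element. Psme1, with the smallest p, has no match in this window. Psmc5, with the lowest log2 fold change, also has no match there and is not printed.
Psmb5, chr14:54617996-54618245, minus strand: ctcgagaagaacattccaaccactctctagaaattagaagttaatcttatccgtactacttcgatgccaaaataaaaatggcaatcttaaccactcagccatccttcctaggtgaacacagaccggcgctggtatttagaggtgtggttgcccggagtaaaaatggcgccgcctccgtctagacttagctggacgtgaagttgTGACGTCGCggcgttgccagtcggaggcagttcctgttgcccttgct
Psmb6, chr11:70525107-70525356, plus strand: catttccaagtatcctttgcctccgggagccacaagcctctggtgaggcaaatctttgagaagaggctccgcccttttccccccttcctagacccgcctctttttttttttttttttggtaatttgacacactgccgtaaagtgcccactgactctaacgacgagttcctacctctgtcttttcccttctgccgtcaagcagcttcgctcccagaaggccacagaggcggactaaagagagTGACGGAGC
Psmd2, chr16:20651402-20651651, plus strand: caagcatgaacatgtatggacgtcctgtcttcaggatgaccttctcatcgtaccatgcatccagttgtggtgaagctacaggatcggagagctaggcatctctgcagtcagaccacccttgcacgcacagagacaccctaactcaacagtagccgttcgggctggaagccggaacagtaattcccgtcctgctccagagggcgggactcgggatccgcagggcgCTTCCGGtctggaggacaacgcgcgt
Psmd4, chr3:95042615-95042864, minus strand: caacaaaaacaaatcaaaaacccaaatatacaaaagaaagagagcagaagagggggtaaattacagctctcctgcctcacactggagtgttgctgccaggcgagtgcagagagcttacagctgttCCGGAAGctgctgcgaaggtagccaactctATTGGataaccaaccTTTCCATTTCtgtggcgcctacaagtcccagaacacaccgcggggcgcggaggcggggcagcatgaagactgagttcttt
Psme1, chr14:55578244-55578493, plus strand: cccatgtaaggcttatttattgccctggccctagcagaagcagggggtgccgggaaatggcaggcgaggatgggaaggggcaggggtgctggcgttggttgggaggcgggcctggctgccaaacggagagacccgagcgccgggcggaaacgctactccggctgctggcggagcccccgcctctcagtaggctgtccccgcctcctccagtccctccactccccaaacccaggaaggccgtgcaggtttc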

How the data were processed

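RNA of 6 libraries was sequenced, 3 of NKG2D+ and 3 of NKG2D- cells. The deposited values are raw read counts per gene, made with CASAVA 1.8.2, TopHat2 2.0.4 and the mm9 genome per the submitters' processing notes. The counting program and its annotation were not given in the sources used here. The files pair counts with symbols, and 5 summary rows that name no gene were left out, among them reads aligned to several places (19.71% to 26.19% of all reads), outside genes (14.01% to 15.87%) and ambiguous ones (0.715% to 0.836%).

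Counts were tested over all genes in R 4.3.3 with edgeR 4.0.16 (TMM, filterByExpr with a minimum count of 10 and total of 15, robust quasi-likelihood F-test in its legacy form, group as the only term), with Benjamini-Hochberg adjustment over 12951 genes and a threshold of 0.05. The SE is the log2 fold change divided by the square root of F. The script was tested on simulated data. DESeq2 1.42.0, limma 3.58.1, other scalings, no filter, a replicate block and left-out libraries were alternatives. P-values of the fits set the difference between groups against the spread between these libraries. Those of the main fit and of the exact permutation tests treat the 6 libraries as independent and ignore any pairing by mouse. Transcript lengths came from GENCODE (GRCm38), as lengths only.

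A shared number was read as a shared mouse, since the series text names 3 mice. The deviations of such pairs from group means correlated across genes at r = 0.25, 0.20 and 0.38. No library of a group was a copy of another, since count differences exceeded sampling noise (chi-square over degrees of freedom 43.3 to 250.0).

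Members and lists were chosen with earlier results of these data known. Named genes are Psmb5 to Psmb7, Psme1 to Psme4, called members, the smallest p and both extremes of each role, and called genes or the smallest p of each pathway list. Psmc3ip, Psmb8 and Psmb10 were added after their values were seen. Some genes of the pathway lists are not reported here.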

Additional observations from a re-analysis of the deposited data

How the results depend on the processing

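The count of proteasome genes called, 0 higher and 0 lower, was the same in all 17 alternatives. Over all genes edgeR called 261, DESeq2 1442, limma-voom 83, edgeR with the replicate block 68 and limma-voom with the replicate block 134. Leaving out NKG2D+ library 1, 2 or 3 gave 543, 1312 and 15, and NKG2D- library 1, 2 or 3 gave 21, 13 and 8. Without both libraries of mouse 3 the count was 0, by edgeR, with 971 genes at an unadjusted p under 0.05, and without those of mouse 1 or 2 it was 229 and 354. The cause was not tested. The smallest adjusted p of a member ran from 0.0746 (without NKG2D+ library 2) to 0.734 (without mouse 3), and was 0.129 with the replicate block, which changed no member's call. At an unadjusted p under 0.05 by edgeR with that block, 4 members stood below and 0 above. There 3306 of all 12951 genes passed in either direction. Library totals turned the median log2 fold change of the members from -0.066 to 0.018. The log2 ratio of Psmb10 to Psmb7, -0.027 between the groups, ran from -0.09 without NKG2D+ library 2 to 0.075 without NKG2D+ library 1, and was 0.005 without NKG2D- library 1, so leaving out either replicate 1 turned its direction. Within same-numbered pairs (the replicate block of the ratios) it was -0.027. Without the filter, Psma8 entered the test on 2 counts. Depth limits Psmb11 and Psma8 most.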
